A study of Mus musculus with 20 samples.

Results

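The marks around 8 genes of red cell formation were followed through the peak lists of 3 histone marks in bone marrow cells of 4 genotypes. They were the transcription factor genes Klf1, Nfe2 and Bcl11a, the receptor genes Epor and Tfrc, the heme enzyme gene Urod and the carbonic anhydrase genes Car1 and Car2. The 8 were named by symbol out of 21938 protein-coding genes of the GENCODE annotation on mm10, by a rule that used no measured value, with earlier results of these data known. For each, all called peaks were collected that overlapped the gene body or the 20 kb on either side of it. This gave 807 of the 591292 peaks of the 12 lists, of which 151 were H3K27ac, 517 were H3K4me1 and 139 were H3K4me3 peaks.

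The series measured histone marks by ChIP-Seq in lineage-negative (Lin-) bone marrow cells, with 1 library for each genotype and mark, and chromatin of fly S2 cells added as a spike-in. All mice were on the C57BL/6 background, carried floxed Ep300 alleles (Ep300 fl/fl) and received 3 doses of poly(I:C), 10 μg per g of body weight, from 6 to 8 weeks of age. The WT group was Ep300 fl/fl alone, the Ep300Δ/Δ group also carried Mx1-Cre, the Tet2-/- group was Ep300 fl/fl with germline loss of Tet2, and the Ep300Δ/ΔTet2-/- group carried Mx1-Cre, Ep300 fl/fl and loss of Tet2. The design asks how loss of the acetyltransferase p300 alters the marks, with and without the DNA demethylating enzyme Tet2. Mx1-Cre is switched on by interferon and acts in many cell types, mice of both sexes were used, and the study's methods place experiments 2 weeks after poly(I:C) or at other stated times, with none stated for these libraries. Lineage depletion removes most maturing cells, so the lists describe mixed progenitors. Fewer cells of a type and less mark per cell cannot be told apart in them.

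H3K4me3 lies at the starts of genes, H3K4me1 marks the wider surroundings of starts and enhancers, and H3K27ac, which p300 and its relative CBP deposit, lies at those that are active. Erythroid genes are switched on by GATA1, TAL1 and KLF1, with NF-E2 as a partner at globin enhancers. KLF1 turns on genes of heme synthesis and the red cell membrane as well as Bcl11a, whose product silences embryonic and fetal globin. Erythropoietin acts through the receptor encoded by Epor, and Tfrc encodes the transferrin receptor that brings iron into the cell. Urod encodes uroporphyrinogen decarboxylase of the heme pathway, and carbonic anhydrases 1 and 2, which interconvert carbon dioxide and bicarbonate, are abundant in red cells.

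Within 3000 bp of a transcript start, H3K4me3 was called at all 8 genes in all 4 genotypes, as at 60.1% of all 21938 promoters. The acetyl mark was not. At a promoter width of 1000 bp each of these marks differed between lists at 1 of the 8 genes, H3K4me3 at Car1 and H3K27ac at Klf1. H3K27ac at the Klf1 promoter was called in WT, Ep300Δ/Δ and Tet2-/- cells and in no peak of Ep300Δ/ΔTet2-/- cells. Car1 had H3K27ac in the Tet2-/- list alone. Car2 had 2 intergenic H3K27ac regions that were called in both lists without Tet2 and in neither list with it. Nfe2, Bcl11a, Epor, Tfrc, Urod and Car2 kept promoter H3K27ac in every list, and the remaining differences were mostly in narrow regions of low fold enrichment.

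Sequences at these differences are shown first, with those at Epor and 8.42 kb upstream of Car2 added because they hold GATA matches. They are in lower case, with each match to a searched motif in capitals. The GATA motif was searched on both strands as AGATAA, and the KLF motif as CCNCNCCC. The form TGATAA was not searched and is not in capitals. The Klf1 line holds it on the minus strand, and the Car2 line at 8.42 kb upstream on the plus strand. The NF-E2 motif was searched too, as was TAL1 with GATA, which is CTG at a fixed distance before a GATA match. Adjacent KLF matches can overlap and then read as 1 run of capitals. The first lines are the bases upstream of the RefSeq starts of Klf1 and Epor, up to the first annotated exon, in the direction of the gene (build GRCm38.p6). The Klf1 line is chr8:84901732-84901927 on the plus strand, inside the WT H3K27ac peak that had no counterpart in the Ep300Δ/ΔTet2-/- list. It held no match to the motifs as searched. The Epor line is chr9:21963577-21963826 on the minus strand, at the edge of a region with H3K27ac in every list, and it held 5 matches, 1 of them to the GATA motif. RefSeq promoters were matched for 5 of the 8 genes, 6 promoters of 300 bases in all. Of these 6, 1 held the GATA motif, 5 the KLF motif and 0 the NF-E2 or the TAL1 with GATA motif. Of 32851 RefSeq promoters of 300 bases, 11.2% held the GATA motif, 49.5% the KLF motif, 0.155% the NF-E2 motif and 0.362% the TAL1 with GATA motif.
Klf1 promoter: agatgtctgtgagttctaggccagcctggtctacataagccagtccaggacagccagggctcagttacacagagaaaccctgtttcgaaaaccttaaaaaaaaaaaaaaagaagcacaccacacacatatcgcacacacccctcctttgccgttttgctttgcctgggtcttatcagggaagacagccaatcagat
Epor promoter: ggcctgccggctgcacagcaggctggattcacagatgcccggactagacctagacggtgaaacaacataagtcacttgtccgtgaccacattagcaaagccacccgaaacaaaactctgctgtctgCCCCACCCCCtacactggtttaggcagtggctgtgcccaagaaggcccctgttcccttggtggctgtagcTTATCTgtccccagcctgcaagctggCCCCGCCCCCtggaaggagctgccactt

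The other lines are 300 bases around an H3K27ac summit, on the plus strand of mm10. They are the stronger Tet2-/--only summit of Car1 (chr3:14805225-14805524, intron), the intergenic Car2 summits called only without Tet2 at 3.83 kb upstream (chr3:14882292-14882591) and at 26.1 kb downstream of the first start (chr3:14912191-14912490), a WT Car2 summit 8.42 kb upstream (chr3:14877705-14878004, intergenic), the summit in an intron of Tnk2 in the Tfrc window that was absent from the Ep300Δ/ΔTet2-/- list (chr16:32650794-32651093), and an intronic Bcl11a summit called in WT cells alone (chr11:24135469-24135768). In the Car2 line at 8.42 kb upstream 2 GATA matches were found, and in the Car1 line 2 overlapping KLF matches. The other 4 lines held none.
Car1 intron, Tet2-/- list: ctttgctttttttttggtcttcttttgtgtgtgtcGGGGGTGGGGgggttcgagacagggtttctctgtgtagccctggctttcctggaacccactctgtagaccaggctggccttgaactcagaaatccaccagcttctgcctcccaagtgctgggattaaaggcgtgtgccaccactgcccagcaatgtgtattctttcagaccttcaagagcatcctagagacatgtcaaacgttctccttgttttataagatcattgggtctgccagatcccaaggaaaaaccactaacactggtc
Car2 3.83 kb upstream, Tet2-/- list: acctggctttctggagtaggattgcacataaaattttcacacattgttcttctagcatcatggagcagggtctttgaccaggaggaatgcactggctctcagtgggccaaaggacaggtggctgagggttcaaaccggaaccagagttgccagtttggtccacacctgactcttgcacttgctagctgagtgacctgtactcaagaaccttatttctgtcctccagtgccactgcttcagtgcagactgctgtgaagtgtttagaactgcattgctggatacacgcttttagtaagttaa
Car2 26.1 kb downstream, Tet2-/- list: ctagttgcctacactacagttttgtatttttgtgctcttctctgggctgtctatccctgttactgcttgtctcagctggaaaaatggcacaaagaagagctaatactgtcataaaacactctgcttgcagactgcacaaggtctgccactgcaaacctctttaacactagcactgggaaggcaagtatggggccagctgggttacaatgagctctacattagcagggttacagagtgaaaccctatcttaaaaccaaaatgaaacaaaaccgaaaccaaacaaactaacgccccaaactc
Car2 8.42 kb upstream, WT list: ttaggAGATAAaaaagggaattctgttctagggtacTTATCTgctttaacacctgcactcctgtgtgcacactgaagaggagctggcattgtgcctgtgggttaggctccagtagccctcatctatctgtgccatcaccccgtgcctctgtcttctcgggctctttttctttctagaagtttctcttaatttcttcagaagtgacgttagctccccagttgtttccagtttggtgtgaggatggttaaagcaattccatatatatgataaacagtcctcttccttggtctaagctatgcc
Tnk2 intron in the Tfrc window, WT list: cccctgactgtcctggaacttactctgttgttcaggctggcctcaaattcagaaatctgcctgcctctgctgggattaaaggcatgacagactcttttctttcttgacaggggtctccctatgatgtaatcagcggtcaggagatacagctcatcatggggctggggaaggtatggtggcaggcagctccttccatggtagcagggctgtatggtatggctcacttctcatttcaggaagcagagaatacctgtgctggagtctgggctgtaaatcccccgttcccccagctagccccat
Bcl11a intron, WT list: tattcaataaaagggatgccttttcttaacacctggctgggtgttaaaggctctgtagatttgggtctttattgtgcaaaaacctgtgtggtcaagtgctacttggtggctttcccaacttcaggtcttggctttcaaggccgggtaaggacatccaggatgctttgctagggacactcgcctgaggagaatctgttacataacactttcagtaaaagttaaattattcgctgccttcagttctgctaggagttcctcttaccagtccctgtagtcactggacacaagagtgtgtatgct

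The KLF motif lay at 13 of 35 WT, 12 of 40 Ep300Δ/Δ, 20 of 44 Tet2-/- and 16 of 32 Ep300Δ/ΔTet2-/- summits of the 8 windows, against 39.9%, 44.5%, 43.2% and 42.9% of all summits of those lists. The GATA motif was found at 3 of 35 WT, 1 of 40 Ep300Δ/Δ, 3 of 44 Tet2-/- and 0 of 32 Ep300Δ/ΔTet2-/- summits, against 9.35%, 7.84%, 8.56% and 8.5% of all summits of those lists. No member summit held the NF-E2 or the TAL1 with GATA motif, which lay at 0.223% and 0.28% of all WT summits.

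The number of peaks differed more between genes than between genotypes. Bcl11a, the longest of the 8, held 64, 61, 58 and 58 H3K4me1 peaks in WT, Ep300Δ/Δ, Tet2-/- and Ep300Δ/ΔTet2-/- cells. Car1 held none in any list, although its window spans 82.2 kb. All H3K27ac peaks of the 8 windows numbered 35, 40, 44 and 32 in that order, and covered 29.0, 19.6, 27.2 and 20.8 kb. The lists with intact Ep300 thus covered more bases than those without it, and the whole lists had the same order, with 18.7, 11.5, 15 and 11.9 Mb. Ep300Δ/Δ cells had more peaks than WT cells but fewer bases under them, and with −log10 q of at least 5 the counts were 27, 21, 40 and 28, so that the order of these 2 lists turned.

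**Figure D1:**
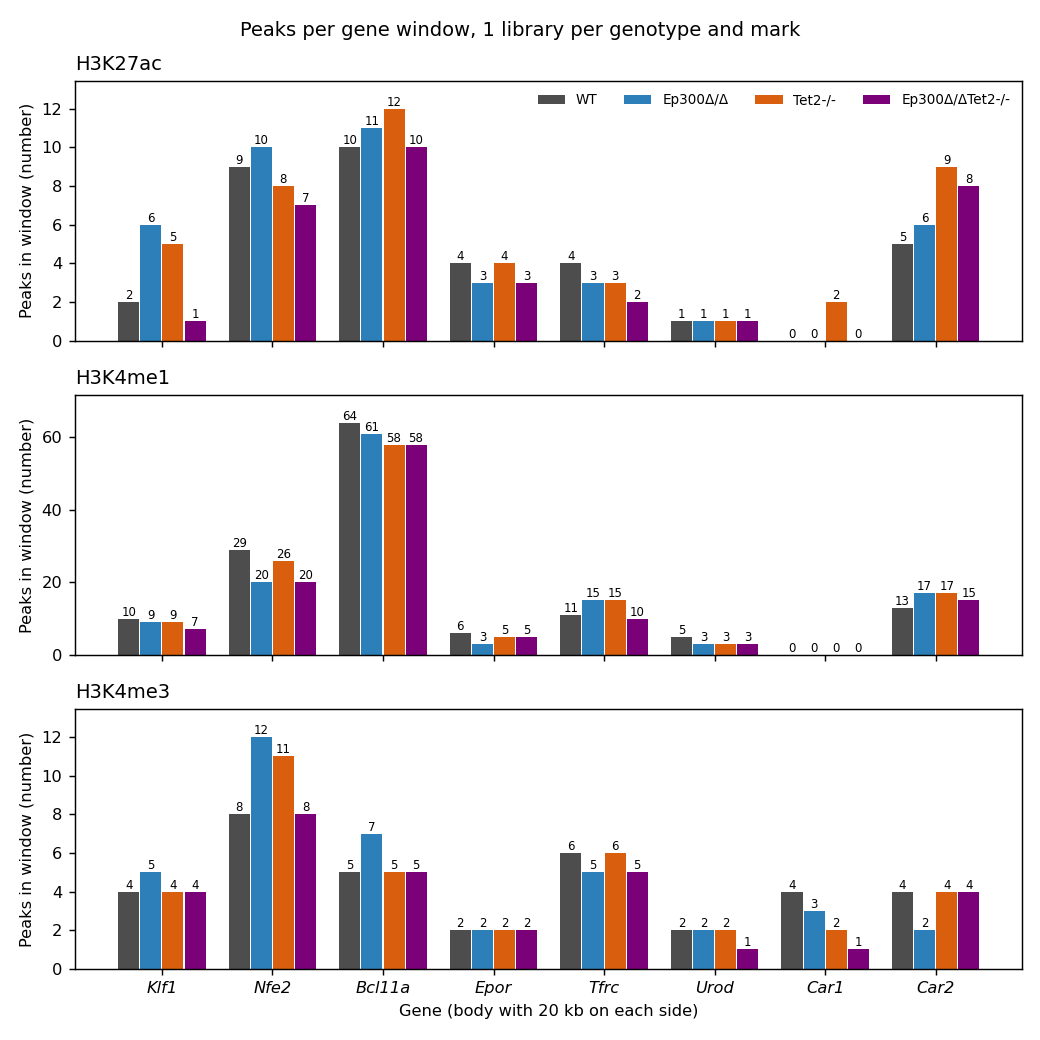
Bars show the number of called peaks (y axis, from 0) in each gene window (x axis) for WT, Ep300Δ/Δ, Tet2-/- and Ep300Δ/ΔTet2-/- cells, with 1 library for each bar and a panel for each mark. Car1 had H3K27ac peaks in Tet2-/- cells only (2 peaks) and no H3K4me1 peak, and Klf1 ranged from 1 to 6 H3K27ac peaks.

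The whole lists bear on every count below. The 4 H3K27ac lists held 18327 to 29659 peaks and the number was lowest in Ep300Δ/ΔTet2-/- cells, with 90738 to 107392 H3K4me1 and 25012 to 27807 H3K4me3 peaks. The reads behind them are not in the peak lists, so the depth is unknown. The promoters of Ep300 and Tet2 were called for H3K27ac and H3K4me3 in all 4 genotypes, and peaks do not show whether either gene was deleted. The progenitor genes Kit and Flt3 had promoter H3K27ac in all 4 lists. Of 6 stem and progenitor markers 4, 4, 3 and 3 were called in WT, Ep300Δ/Δ, Tet2-/- and Ep300Δ/ΔTet2-/- cells, of 5 T cell markers 2 in each, of 4 B cell markers 1, 0, 0 and 0, of 5 granulocyte markers 1, 0, 1 and 0, of 3 macrophage markers 2, 2, 1 and 1, and of 3 markers of nonhematopoietic cells 0, 0, 1 and 0. The part of cell composition in the results was not tested. With lists of equal size, 23 of the 24 shares of lost and gained regions given below stayed within their counting intervals.

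A region counted as lost when no peak of the second list shared even 1 bp with it, and as gained in the opposite case. With 1 library per genotype no test between genotypes was possible, and the exact 95% intervals cover counting error only. From WT to Ep300Δ/Δ cells 12 of 35 H3K27ac regions of the 8 windows were lost (34.3%, interval 19.1% to 52.2%), against 39.7% of all regions, and 7 of 30 were gained (23.3%, 9.93% to 42.3%), against 12.8%. With lists of equal size the lost share was 9.52% (2 of 21). The share of all regions under that setting is not given here, so this value is not comparable with the 39.7%. Of the 7 gains 5 lay in the Bcl11a window, without which the gained share was 9.52% (2 of 21). With −log10 q of at least 5 the gained share was 0.0% (0 of 17), against 4.46% of all. From Tet2-/- to Ep300Δ/ΔTet2-/- cells 16 of 42 were lost (38.1%, 23.6% to 54.4%), against 37.8%, and 3 of 29 were gained (10.3%, 2.19% to 27.4%), against 15.0%. Both losses sat near the share of the whole list, and with these counts no difference from it was detectable.

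From WT to Tet2-/- cells 11 of 35 regions were lost (31.4%, 16.9% to 49.3%), against 35.6% of all. From Ep300Δ/Δ to Ep300Δ/ΔTet2-/- cells 13 of 35 were lost (37.1%, 21.5% to 55.1%), against 31.2%, and 7 of 29 were gained (24.1%, 10.3% to 43.5%), against 18.5%. Of the 13 losses 5 lay in the Bcl11a window, and 5 were the peaks into which the Klf1 promoter stretch was called in Ep300Δ/Δ cells. With −log10 q of at least 5 the lost share was 10.5% (2 of 19), against 16.4% of all. The gain from WT to Tet2-/- cells came closest to leaving the whole list outside its interval, with 13 of 37 regions (35.1%, 20.2% to 52.5%) against 20.3%. Of these 13, 7 lay in the Bcl11a window and 3 in that of Car2, and without Bcl11a the share was 23.1%.

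The regions that came and went were mostly the weak ones. Fold ranks are given here as the percent of peaks in the same list with an equal or lower fold enrichment over the H3 library, because the fold itself is not comparable between lists. A rank also moves with the number of weak peaks in its list, so the ranks of the 4 genotypes stand side by side and no difference between genotypes is read from them. The 12 regions lost from WT to Ep300Δ/Δ cells ranked between 0.351 and 48.2, with a median of 25.1 and a median width of 386 bp, whereas the 23 that were kept had a median rank of 63.6 and a median width of 785 bp. The 16 lost from Tet2-/- to Ep300Δ/ΔTet2-/- cells had a median rank of 34.1, and 3 of them ranked above the median of their list. The same held for all genes, since 78.0% of WT regions in the lowest 10% by fold and 0.0% in the highest 10% were lost in Ep300Δ/Δ cells. In the 8 windows, 1 of the 11 losses from WT to Tet2-/- cells ranked above the median of its list, as did 2 of the 13 gains. From Ep300Δ/Δ to Ep300Δ/ΔTet2-/- cells 0 of 13 losses and 1 of 7 gains did. In the 2 steps of Ep300 loss 0 of 7 and 0 of 3 gains did.

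**Figure D2:**
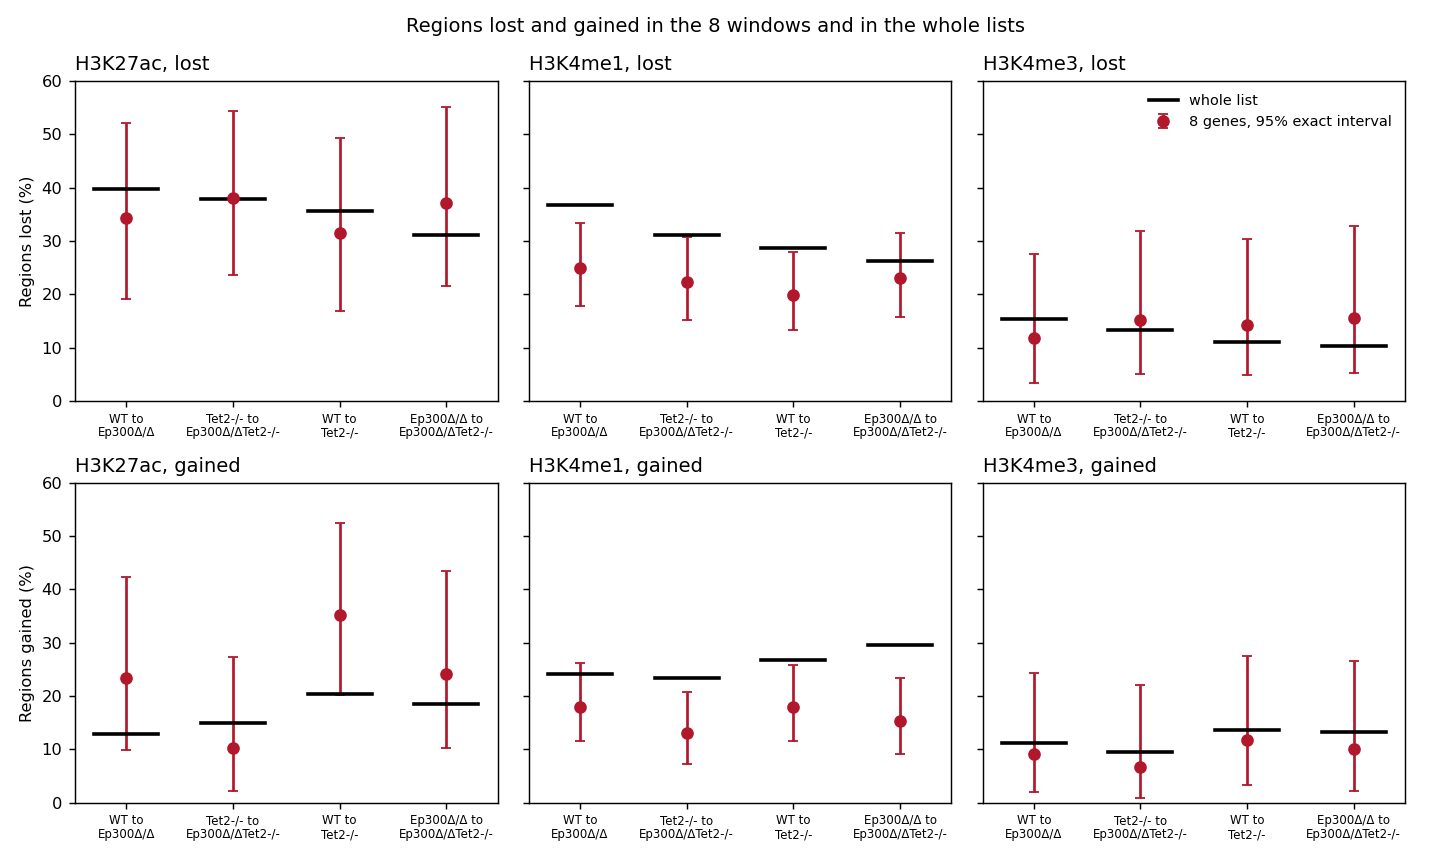
Points give the percent of regions in the 8 windows that were lost (upper row) or gained (lower row) in each step between genotypes (x axis), with exact 95% intervals as error bars, and black bars give the percent over the whole lists. Most intervals cover the bar, and the H3K4me1 points lie below it in all 4 steps, for losses and for gains.

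A smaller share of H3K4me1 regions was lost around these genes than in the whole lists in each of the 4 steps, and in 3 of them most of the gap came from Bcl11a. The lost shares were 32 of 128 (25.0%, 17.8% to 33.4%) from WT to Ep300Δ/Δ, against 36.7%, and 27 of 121 (22.3%, 15.2% to 30.8%) from Tet2-/- to Ep300Δ/ΔTet2-/-, against 31.1%. They were 25 of 126 (19.8%, 13.3% to 27.9%) from WT to Tet2-/-, against 28.6%, and 28 of 122 (23.0%, 15.8% to 31.4%) from Ep300Δ/Δ to Ep300Δ/ΔTet2-/-, against 26.2%. Without Bcl11a the 4 shares were 33.8%, 27.9%, 17.9% and 25.4%, and only the third stayed further than 4 percentage points from the whole list. With −log10 q of at least 5 the lost shares were 31.1%, 40.2%, 20.9% and 24.4%, against 51.0%, 44.1%, 23.6% and 25.2% of the whole lists. Gained H3K4me1 regions made up 17.9%, 13%, 17.9% and 15.3% of the member regions in the same order, against 24.1%, 23.4%, 26.8% and 29.5%. With −log10 q of at least 5 they were 19.5%, 15.9%, 27.3% and 15.7%, against 21.5%, 18.3%, 37.3% and 43.5%. Without Bcl11a they were 25.4%, 10.9%, 23.6% and 19%, the first of which was above the whole list.

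H3K4me3 moved little. The 8 windows lost 4 of 34, 5 of 33, 5 of 35 and 5 of 32 regions in the 4 steps, or 11.8%, 15.2%, 14.3% and 15.6%, against 15.4%, 13.3%, 11.1% and 10.3% of all regions. Gains were 3 of 33, 2 of 30, 4 of 34 and 3 of 30, or 9.09%, 6.67%, 11.8% and 10.0%, against 11.1%, 9.45%, 13.6% and 13.2%. Over all 4 genotypes, 24 of 38 H3K4me3 regions were called in every list (63.2%, 46.0% to 78.2%), as were 70 of 153 H3K4me1 regions (45.8%, 37.7% to 54.0%) and 19 of 51 H3K27ac regions (37.3%, 24.1% to 51.9%). In the whole series these were 64.1%, 34.4% and 35.5%.

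Promoter calls, within 3000 bp of any transcript start, differed for 2 of the 8 genes. H3K27ac was called at 7, 7, 8 and 6 of the 8 promoters in WT, Ep300Δ/Δ, Tet2-/- and Ep300Δ/ΔTet2-/- cells. From WT to Ep300Δ/Δ cells 0 of 7 calls were lost, against 7.96% of all genes with a call, and 0 of 7 were gained, against 3.08%. From Tet2-/- to Ep300Δ/ΔTet2-/- cells 2 of 8 were lost, those of Klf1 and Car1, against 10.2%, and 0 of 6 were gained, against 3.35%. From WT to Tet2-/- cells 0 of 7 were lost, against 6.09%, and 1 of 8 was gained, that of Car1, against 4.15%. From Ep300Δ/Δ to Ep300Δ/ΔTet2-/- cells 1 of 7 was lost, that of Klf1, against 8.42%, and 0 of 6 were gained, against 4.48%. For H3K4me3 no promoter call of the 8 was lost in the 4 steps, against 1.41%, 1.51%, 1.49% and 2.49%, or gained, against 3.38%, 2.03%, 2.2% and 1.73%. At a promoter width of 1000 bp the Car1 call was missing from the Tet2-/- list. It was then lost from WT to Tet2-/- cells and gained from Tet2-/- to Ep300Δ/ΔTet2-/- cells.

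**Figure D3:**
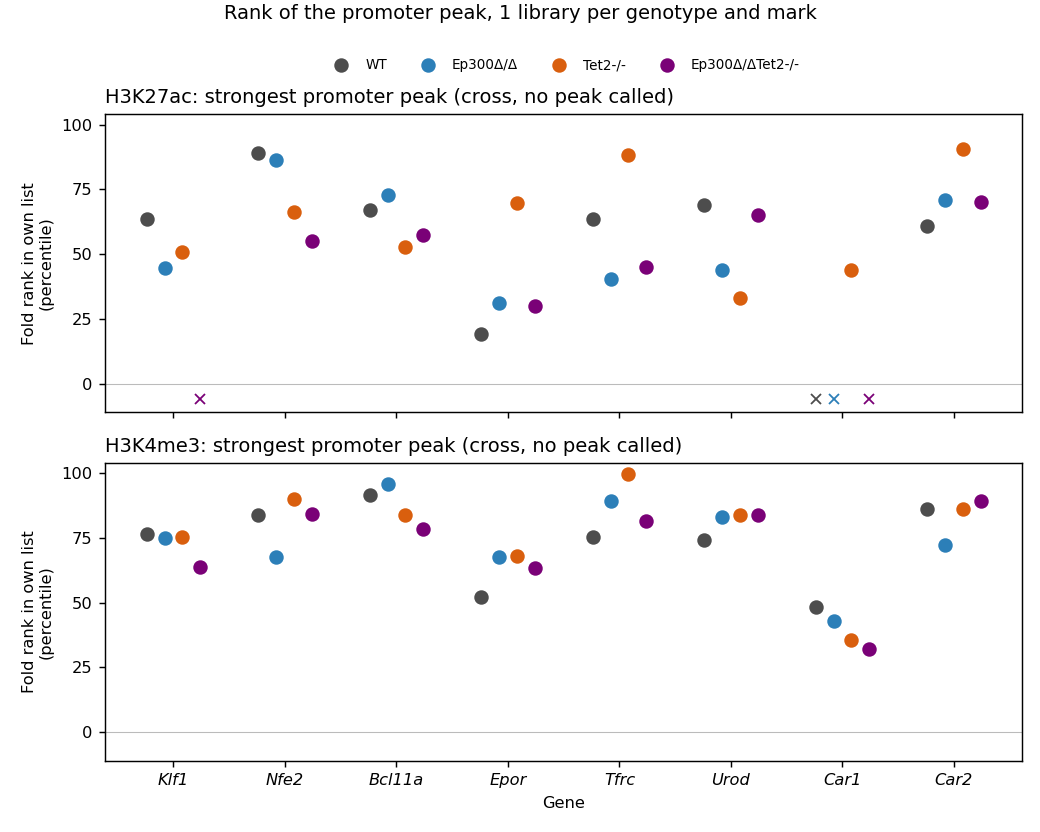
Points give the rank by fold enrichment within its own list (y axis, percentile) of the strongest promoter peak of each gene (x axis) in each genotype, for H3K27ac above and H3K4me3 below, and a cross marks a promoter with no called peak. H3K27ac was missing at Klf1 in Ep300Δ/ΔTet2-/- cells and at Car1 in every list but that of Tet2-/- cells, and H3K4me3 was called throughout at this promoter width of 3000 bp.

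Klf1 encodes the zinc finger factor that directs the erythroid gene program. It lies at chr8:84901928-84905291 on the plus strand (ENSMUSG00000054191.8), between Syce2 and Gcdh upstream and Dnase2a and Mast1 downstream. Its promoter H3K27ac was 1 peak of 2641 bp in WT cells, at percentile 99.4 of that list for width, with a fold of 8.63 and rank 63.6. In Ep300Δ/Δ cells the same stretch was called as 5 peaks, the strongest at rank 44.9. In Tet2-/- cells it was 3 peaks, the strongest at rank 51.0. In Ep300Δ/ΔTet2-/- cells no peak was called there. The strongest peaks of the 3 lists had −log10 q values of 26.7, 8.01 and 17.4.

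The pattern of H3K27ac in 3 lists and absence from the Ep300Δ/ΔTet2-/- list was shared by 529 of 21938 promoters (2.41%). H3K4me3 over the Klf1 start was 1 peak in each list, 3163, 3131, 2651 and 2353 bp wide in WT, Ep300Δ/Δ, Tet2-/- and Ep300Δ/ΔTet2-/- cells, at ranks 76.5, 75.1, 75.2 and 63.8. H3K4me1 was called at the Klf1 promoter in every list, in 5, 4, 4 and 2 peaks, and 2 of its regions, 0.828 and 2.68 kb inside the gene, were called in WT and Tet2-/- cells only. At a promoter width of 1000 bp its H3K4me1 was called in every list but that of Ep300Δ/ΔTet2-/- cells, as was that of Car2. The H3K27ac peak of the neighbor Dnase2a, a lysosomal nuclease gene, lay 7.16 kb downstream of the Klf1 start and was present in all 4 lists at ranks 92.3, 91.5, 82.1 and 90.2. Bases under H3K27ac in the Klf1 window came to 3528, 2595, 3063 and 959 bp, and the 959 bp were those of Dnase2a. The remaining H3K27ac region of the window was a 238 bp peak near Dnase2a, called in Tet2-/- cells alone at rank 2.35.

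Nfe2 encodes the hematopoietic subunit of NF-E2 (ENSMUSG00000058794.12, chr15:103248212-103258403, minus strand). The gene has 10 annotated transcript starts, and all 9 H3K27ac regions of its window lay at promoters, its own or those of neighbors, 6 of them in all 4 lists. At its first start the strongest peak was at rank 89.2 in WT and 86.2 in Ep300Δ/Δ cells, and at 47.1 in Tet2-/- and 54.0 in Ep300Δ/ΔTet2-/- cells. Another region 3.32 kb into the gene was at ranks 79.6, 68.2, 66.4 and 42.4.

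Narrow regions further inside the gene accounted for the differing calls of Nfe2. Peaks of 253 bp and 438 bp, 6.85 and 6.13 kb inside the gene, were called in WT cells alone, at ranks 30.4 and 43.7. A region 5.35 kb inside was called in WT and Ep300Δ/Δ cells, at ranks 60.9 and 36.1. Bases under H3K27ac in the window came to 9130, 7024, 6918 and 6606 bp in WT, Ep300Δ/Δ, Tet2-/- and Ep300Δ/ΔTet2-/- cells. H3K4me3 inside the gene was 1 peak of 5664 bp in WT cells, at percentile 99.9 of that list for width. The same stretch was called as 3, 2 and 2 peaks in Ep300Δ/Δ, Tet2-/- and Ep300Δ/ΔTet2-/- cells, the widest of 3379, 4501 and 4488 bp. The strongest H3K27ac of the window was not at Nfe2 but at the shared promoter of Hnrnpa1 and Cbx5, at ranks 98.7, 92.0, 97.4 and 81.9, and the Copz1 promoter on the other side was at 81.0, 88.1, 94.6 and 47.3. Both promoters were called in every list.

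Bcl11a encodes a zinc finger repressor of fetal globin that B cell and stem cell development also need (ENSMUSG00000000861.15, chr11:24078056-24174123, plus strand). Its start carried the widest H3K4me3 peak of the 8 genes, at 7285, 7262, 7292 and 7318 bp in WT, Ep300Δ/Δ, Tet2-/- and Ep300Δ/ΔTet2-/- cells. Its fold rank was 91.7, 95.6, 83.8 and 78.6. H3K27ac around the start was called in all 4 lists as 3 shared regions, the strongest peak at ranks 67.0, 72.8, 52.7 and 57.4.

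Away from the start, Bcl11a H3K27ac was scattered and shared by no more than 2 lists. Of 21 regions 13 were called in 1 list, and of the 12 outside promoters none was called in all 4. An erythroid enhancer of BCL11A is known to lie within the gene, but its place was not mapped onto these regions. Between 51.8 and 64.5 kb from the first start the WT list had 5 peaks, the Tet2-/- list 3, and the Ep300Δ/Δ and Ep300Δ/ΔTet2-/- lists 0. That stretch was chosen after its values were seen, so these counts follow in part from the choice. The WT peaks there had ranks of 13.2, 1.18, 48.2, 17.3 and 22.2, and the Tet2-/- peaks 25.6, 24.2 and 38. All 8 were thus below the median of their lists, and 1 pair overlapped between them. H3K4me1 lay over each of these regions in all 4 genotypes. Over the whole lists, 78.0% of WT H3K27ac regions at ranks 0 to 10 and 51.2% at ranks 40 to 50 were lost in Ep300Δ/Δ cells. From Tet2-/- to Ep300Δ/ΔTet2-/- cells, 66.1% at ranks 20 to 30 and 58.7% at ranks 30 to 40 were lost. H3K4me1 in the window was steadier, with 37 of 64 regions in all 4 lists (57.8%, 44.8% to 70.1%). It covered 42553, 44633, 38888 and 35872 bp in WT, Ep300Δ/Δ, Tet2-/- and Ep300Δ/ΔTet2-/- cells. H3K27ac peaks outside promoters that overlapped H3K4me1 of the same genotype, here called active enhancers, numbered 4, 3, 5 and 1 of 10, 11, 12 and 10 peaks. Over the whole lists they made up 32.0%, 22.4%, 26.7% and 20.3% of H3K27ac peaks. Of the 3 in Ep300Δ/Δ cells, those at 69.8 and 71.6 kb had −log10 q values of 1.11 and 0.523, so their q was above 0.05.

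**Figure D4:**
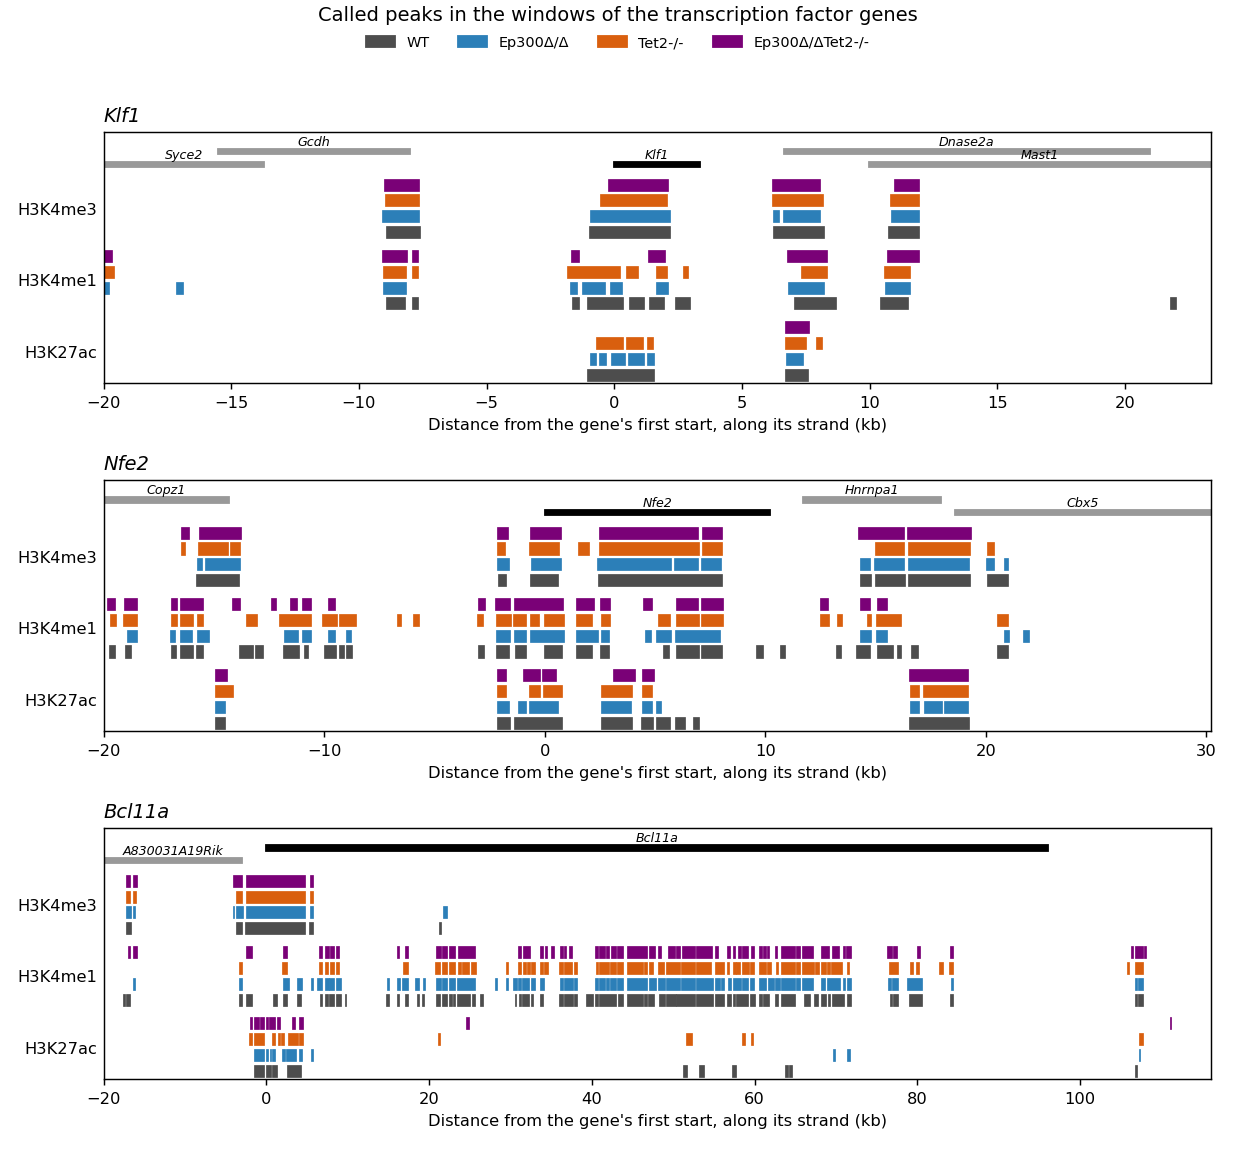
Blocks mark called peaks along the windows of Klf1, Nfe2 and Bcl11a (x axis, kb from the first start along the strand of the gene), colored by genotype and grouped by mark, with protein-coding genes as bars on top. The Klf1 promoter has no H3K27ac block for Ep300Δ/ΔTet2-/- cells below 5 kb, whereas the block of Dnase2a is present in all 4 genotypes.

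Epor encodes the erythropoietin receptor (ENSMUSG00000006235.6, chr9:21958897-21963506, minus strand). H3K27ac at its start was called in all 4 lists, at ranks 19.3, 31.2, 69.7 and 30.2 in WT, Ep300Δ/Δ, Tet2-/- and Ep300Δ/ΔTet2-/- cells. A region 1.32 kb inside the gene was called in WT and Tet2-/- cells, at ranks 13.6 and 25.3, and in neither list without Ep300. H3K4me3 was 1 peak of 2551 to 2861 bp, at ranks 52.3, 67.8, 68.2 and 63.3. The neighboring Swsap1 promoter had the strongest H3K27ac of the window, at ranks 92.7, 73.8, 84.3 and 63.0.

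Tfrc encodes transferrin receptor 1, which takes up iron-loaded transferrin (ENSMUSG00000022797.16, chr16:32608920-32632794, plus strand). Its promoter H3K27ac was at rank 63.6 in WT, 40.4 in Ep300Δ/Δ, 88.4 in Tet2-/- and 45.0 in Ep300Δ/ΔTet2-/- cells. The widest promoter peak measured 1237, 650, 1095 and 557 bp in WT, Ep300Δ/Δ, Tet2-/- and Ep300Δ/ΔTet2-/- cells. H3K4me3 at the same start was at ranks 75.2, 89.2, 99.5 and 81.7.

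In addition, 2 H3K27ac regions of the Tfrc window were called in every list except that of Ep300Δ/ΔTet2-/- cells. The first lay 1.88 kb inside Tfrc, at ranks 7.98, 16.8 and 44.2. The second lay 42.0 kb from the Tfrc start in an intron of the kinase gene Tnk2, at ranks 58.7, 41.3 and 64.9, and its summit fell on the same base, 32650944, in WT and Ep300Δ/Δ cells. It overlapped an H3K4me1 peak in all 4 genotypes, at ranks 95.5, 87.8, 97.6 and 81.0, and so was an active enhancer by the rule used in 3 of them. In the whole series, 2285 of 35252 H3K27ac regions were called in all lists but that one. A 224 bp peak at a Tnk2 promoter was called in WT cells alone, at rank 27.9.

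Urod encodes the fifth enzyme of heme synthesis (ENSMUSG00000028684.14, chr4:116989965-116994413, minus strand). Its window held 1 H3K27ac region, at the start it shares with the oppositely directed ubiquitin ligase gene Hectd3, and this was called in all 4 lists. The peak was at ranks 69.0, 44.0, 33.2 and 65.2 in WT, Ep300Δ/Δ, Tet2-/- and Ep300Δ/ΔTet2-/- cells, with widths of 655, 444, 359 and 492 bp. H3K4me3 formed 2 peaks in 3 lists and 1 peak of 3117 bp in Ep300Δ/ΔTet2-/- cells, the strongest at ranks 74.3, 83.0, 83.7 and 83.7. In WT and Ep300Δ/Δ cells that strongest peak lay on the Hectd3 side of the Urod start, and in Tet2-/- cells over the Urod start. H3K4me1 was called in 3 regions common to all lists and in 2 that were in WT cells alone.

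Car1 encodes carbonic anhydrase 1 (ENSMUSG00000027556.15, chr3:14766216-14808368, minus strand). It carried no H3K4me1 in any list and fewer bases of H3K4me3 than the other 7 genes. H3K27ac was called in Tet2-/- cells alone, as peaks of 446 bp and 245 bp, 2.93 and 2.17 kb inside the gene, at ranks 44.0 and 25.2 and with −log10 q values of 7.79 and 5.4. H3K27ac limited to that list was found at 196 of 21938 promoters (0.893%). At a promoter width of 1000 bp in place of 3000 bp the Car1 promoter had no H3K27ac call in any list.

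The 2 acetylated stretches of Car1 also had H3K4me3 in Tet2-/- cells, at ranks 35.5 and 28.2, and in WT cells, at ranks 42.1 and 41.1. The one nearer the start also had it in Ep300Δ/Δ cells, at rank 30.1. At the start itself H3K4me3 was called in WT, Ep300Δ/Δ and Ep300Δ/ΔTet2-/- cells, at ranks 48.3, 43.0 and 32.1, and not in Tet2-/- cells. The Tet2-/- list thus had both marks inside the gene and none at its start. Bases under H3K4me3 came to 1436, 826, 805 and 309 bp in WT, Ep300Δ/Δ, Tet2-/- and Ep300Δ/ΔTet2-/- cells. A window with no H3K4me1 peak in any list was found for 4565 of all 21938 genes (20.8%), and for 178 of the 13578 with promoter H3K4me3 in WT cells (1.31%).

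Car2 encodes carbonic anhydrase 2 (ENSMUSG00000027562.12, chr3:14886273-14900770, plus strand) and lies downstream of Car3. Promoter H3K27ac was at rank 60.8 in WT, 71.0 in Ep300Δ/Δ, 90.6 in Tet2-/- and 70.2 in Ep300Δ/ΔTet2-/- cells. Further inside the gene, Tet2-/- cells had a peak from 2.66 to 3.93 kb at rank 83.7 and Ep300Δ/ΔTet2-/- cells a peak from 2.43 to 3.97 kb at rank 21.2. Within these stretches lay a WT peak from 3.43 to 3.82 kb at rank 0.351 and an Ep300Δ/Δ peak from 2.92 to 3.22 kb at rank 22.4, which shared no base with each other.

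The regions called in both lists without Tet2 and in neither other list lay between genes. At 3.82 kb upstream H3K27ac was called at rank 54.7 in Tet2-/- and 42.8 in Ep300Δ/ΔTet2-/- cells, with the summit on the same base, 14882442, in both. Their −log10 q values were 9.14 and 6.71, and H3K4me1 was called there in all 4 genotypes. At 26.0 kb downstream of the start it was called at ranks 49.7 and 60.6, and there H3K4me1 and H3K4me3 were also called in those 2 genotypes and in neither of the others. Regions with this pattern of calls were 469 of 35252 H3K27ac regions in the whole series and 4 of 51 in the 8 windows, the other 2 being at the Bcl11a promoter with ranks from 4.70 to 37.1.

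Further upstream, 2 intergenic Car2 regions at 8.97 and 6.88 kb were called in all 4 lists and overlapped H3K4me1 in each. In the first, the peaks that all overlapped each other were at ranks 35, 67.7, 28.9 and 42.8 in WT, Ep300Δ/Δ, Tet2-/- and Ep300Δ/ΔTet2-/- cells, a stronger Tet2-/- peak at rank 51.8 overlapped the WT peak alone, and in the second region the peaks were at 26.9, 63.1, 50.6 and 32.0. The first region also held a WT peak at rank 41.9, the one whose sequence is shown, which overlapped the Ep300Δ/ΔTet2-/- peak and no peak of the other 2 lists. Of the 17 H3K27ac regions outside promoters in the 8 windows, these 2 were shared by every list (11.8%), near the 14.4% of the whole series. At the Car3 promoter H3K27ac was called in every list but that of WT cells, at ranks 24.4, 57.7 and 27.6. Bases under H3K27ac in the Car2 window came to 4186, 2291, 5507 and 6190 bp. Car2 was the one member that covered more bases in Ep300Δ/ΔTet2-/- than in WT cells, and its difference from Ep300Δ/Δ to Ep300Δ/ΔTet2-/- cells, 3899 bp, compared with a median of 81 bp over 13537 genes. Car2 active enhancers numbered 2, 2, 5 and 4 of 5, 6, 9 and 8 H3K27ac peaks, against 32.0%, 22.4%, 26.7% and 20.3% of all peaks of those lists.

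**Figure D5:**
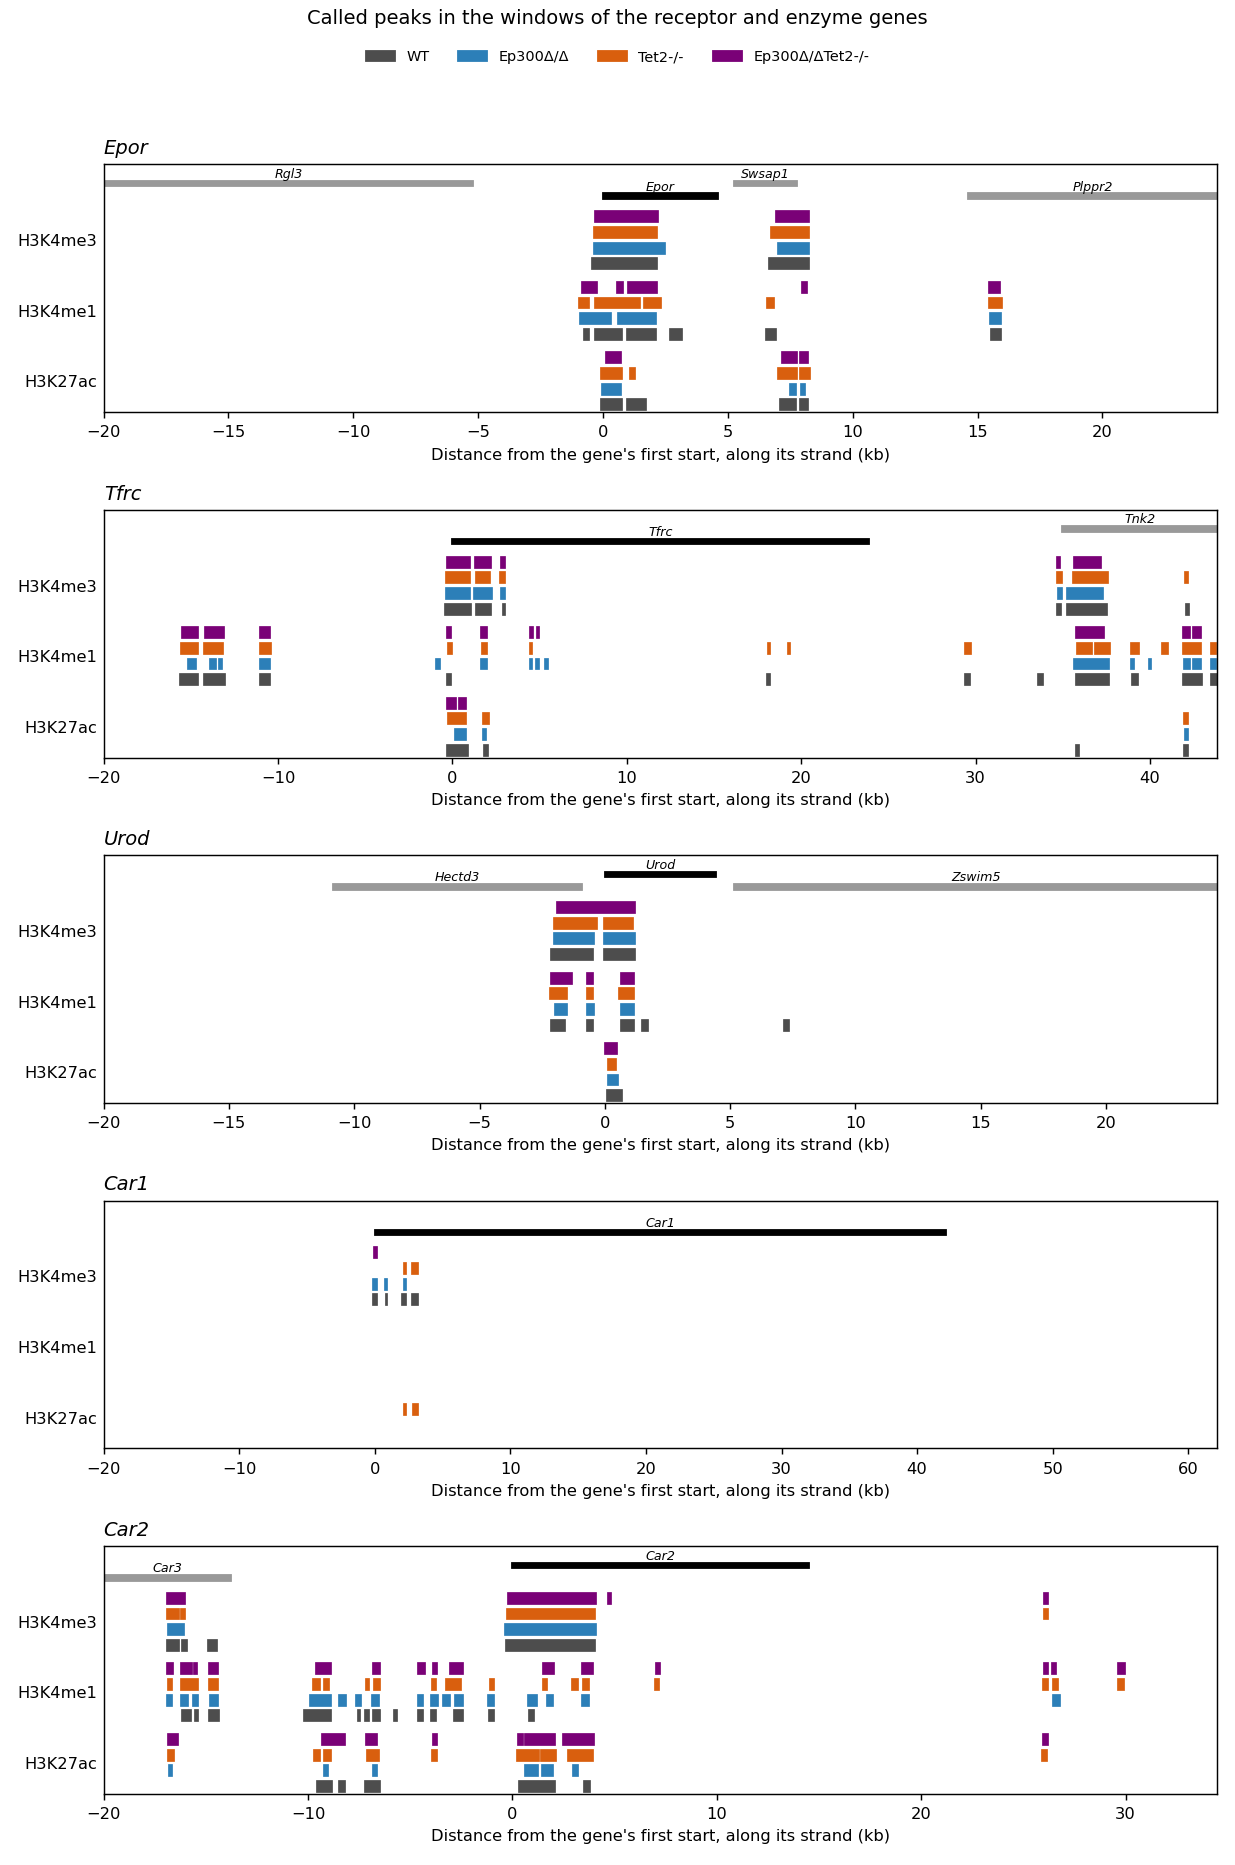
Blocks mark called peaks along the windows of Epor, Tfrc, Urod, Car1 and Car2 (x axis, kb from the first start along the strand of the gene), colored by genotype and grouped by mark, with protein-coding genes as bars on top. The Car2 regions 3.82 kb upstream and 26.0 kb downstream have H3K27ac blocks for Tet2-/- and Ep300Δ/ΔTet2-/- cells only, and the Car1 window is empty of H3K4me1.

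Of all 21938 promoters, 10385, 9862, 10175 and 9456 had H3K27ac in WT, Ep300Δ/Δ, Tet2-/- and Ep300Δ/ΔTet2-/- cells, 40.0% had it in all 4 lists and 49.5% in none. The other heme synthesis genes mostly kept it. Of 8 such genes, among them Alas1, Alad and Fech, 8, 7, 7 and 7 were called in WT, Ep300Δ/Δ, Tet2-/- and Ep300Δ/ΔTet2-/- cells. The exception was Alas2, the erythroid form of the rate-limiting enzyme, which was called in WT cells alone and not at a promoter width of 1000 bp. Its H3K4me1 was called in WT and Ep300Δ/Δ cells only, and its H3K4me3 in all but Tet2-/- cells. Of 13 genes of iron and heme handling, 10 were called in all 4 lists, among them the second transferrin receptor gene Tfr2 and the ferritin genes Fth1 and Ftl1. Slc11a2, the iron transporter DMT1, was called in WT and Tet2-/- cells and in neither list without Ep300, as were 257 of 21938 promoters (1.17%). At a promoter width of 1000 bp Slc11a2 was called in WT cells alone.

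Of 11 erythroid transcription factors and partners 9 were called in all 4 lists, including Tal1, Lmo2, Ldb1 and Zfpm1. At a promoter width of 1000 bp 8 were, with 11, 9, 10 and 11 called in WT, Ep300Δ/Δ, Tet2-/- and Ep300Δ/ΔTet2-/- cells. Gata1 and Gfi1b, the latter a repressor of erythroid and megakaryocytic progenitors, were called in every list but that of Ep300Δ/Δ cells. Of 8 genes of erythropoietin receptor signaling 7 were called throughout, among them Jak2, Stat5a and Cish, and the feedback inhibitor Socs3 was called in WT cells alone. Neither list held a second gene with the pattern of Klf1.

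Of 15 red cell membrane genes 8 were called in all 4 lists, and 12 were called in WT, 13 in Ep300Δ/Δ, 8 in Tet2-/- and 11 in Ep300Δ/ΔTet2-/- cells. Slc4a1, which encodes band 3, and Epb42, which encodes protein 4.2, were called in every list but that of Tet2-/- cells. Rhd and Tmod1 were called in WT and Ep300Δ/Δ cells, and Dmtn in Ep300Δ/Δ cells. At a promoter width of 1000 bp Tmod1 was called in no list. All 8 genes called in Tet2-/- cells, among them Ank1, were called in all 4 lists. H3K4me3 was called at 15, 15, 13 and 13 of the 15, and 60.1% of all promoters had it in all 4 lists. Of 8 other carbonic anhydrase genes 2, 3, 3 and 2 had promoter H3K27ac, with Car9 in all 4 lists, Car3 in all but WT, and Car13 with the pattern of Klf1.

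For each member, other genes were ranked by likeness in the percent of window bases under peaks over the 12 lists. Likeness was the Euclidean distance in percentage points, and windows that overlap that of the member were left out. Nearest were Gm35339 and Hgh1 to Klf1 (3.32 and 3.77), Gpsm3 and Pias4 to Nfe2 (8.11 and 8.2), and E2f8 and Sapcd1 to Bcl11a (5.61 and 5.96). For Epor they were Tmem79 and Ttyh1 (both 2.46), for Tfrc Mok and Tubgcp2 (2.07 and 2.29), and for Urod Jkamp and Tcf24 (1.98 and 2.08). For Car1 they were Hpgd and Rtl8a (1.0 and 1.13), and for Car2 Ccnl1 and Tubd1 (5.25 and 5.59). Car1 and Urod, with few peaks, had the closest matches, and Nfe2 the most distant.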

How the data were processed

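Histone marks were profiled by ChIP-Seq in Lin- bone marrow cells, and 12 peak lists were used here, with 1 library for each of 4 genotypes and 3 marks. Peak lists were at hand for these alone, and 8 of the 20 samples were not used. The authors used cutadapt 1.15 for trimming, BWA 0.7.13 for alignment to mm10 and Picard for duplicate removal, and called narrow peaks with MACS2 2.1.1.20160309 against H3 libraries. The deposited fold enrichment is a ratio over that H3 library at the summit, and no scaling by the fly spike-in is stated for it. The deposited −log10 p and −log10 q values and the score were computed by MACS2 for the authors, and the score was not used. A q threshold of 0.05 is stated, yet each list held peaks above it (0.137% to 7.17%).

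Peaks were taken within 20 kb of each gene body in GENCODE M21. For each comparison, peaks of both lists that shared at least 1 bp were merged into regions, and 95% intervals of shares were computed by the exact Clopper-Pearson method and reflect no more than counting error. Regions described per gene were merged over the 4 lists, so peaks that share no base can join through a peak of another list. Promoters were within 3000 bp of any transcript start. Because lists were called separately, fold enrichment was read only as the authors' value and its rank in its own list. Depth is unknown from these files. Regions named were the strongest promoter region per mark, the strongest H3K27ac region outside promoters and those whose H3K27ac call differed between lists, in part summarized by counts. In the pathway lists, genes whose H3K27ac call differed were named with up to 4 that kept it, except that some genes are not reported here by name, so names need not add up to a list's counts. The genes and lists were chosen with earlier results of these data known. Alternatives covered overlap, distance, q, list size, fold, window and nearest gene. The alternatives with q under 0.05 and without Bcl11a were chosen after seeing the data.

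Overlap calling was tested on simulated data, where 200 of 200 lost and 200 of 200 gained regions were recovered in each comparison, and its calls differed from those of bedtools 2.31.1 for 0 of 3 marks. Python 3.11.15, scipy 1.17.1, numpy 2.4.6, pysam 0.24.0 and matplotlib 3.10.9 were used.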

Additional observations from a re-analysis of the deposited data

Results flagged for a closer look

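At Tfrc and Car2 the balance of gained and lost regions after Ep300 deletion had opposite signs with and without Tet2. The differences between the backgrounds were not tested, since each rests on 1 library per genotype. For H3K4me1 in the Tfrc window, gained minus lost regions came to 2 from WT to Ep300Δ/Δ cells and to -5 from Tet2-/- to Ep300Δ/ΔTet2-/- cells. For H3K4me1 in the Car2 window it was 4 in the first step and -2 in the second. For H3K4me3 in the Car2 window it was -1 and 1. Over the whole lists, 36.7% of H3K4me1 regions were lost and 24.1% gained in the first step, and 31.1% and 23.4% in the second. For H3K4me3 these were 15.4% and 11.1%, and 13.3% and 9.45%. In the Tfrc window H3K4me1 losses were 4 of 11 and then 6 of 14 regions and gains 6 of 13 and then 1 of 9, and in the Car2 window losses were 2 of 13 and 3 of 16 and gains 6 of 17 and 1 of 14. Their counting intervals all included the shares of the whole lists.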

How the results depend on the processing

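No paired analysis was possible because the genotypes share only replicate number 1. Each of the 24 shares of lost or gained regions was recomputed under 10 alternatives, and 208 values stayed within the counting interval of the reported share. The other 32 follow in percent. With −log10 q of at least 5, H3K27ac gained from WT to Ep300Δ/Δ was 0.0 and lost from Ep300Δ/Δ to Ep300Δ/ΔTet2-/- 10.5, H3K4me1 lost from Tet2-/- to Ep300Δ/ΔTet2-/- 40.2 and gained from WT to Tet2-/- 27.3. In lists of equal size, H3K27ac lost from WT to Ep300Δ/Δ was 9.52. In gene bodies alone, H3K4me1 lost from WT to Ep300Δ/Δ was 16.4 and gained from Ep300Δ/Δ to Ep300Δ/ΔTet2-/- 4.84. With peaks joined within 500 bp, H3K4me1 gained from Tet2-/- to Ep300Δ/ΔTet2-/- was 3.77 and H3K4me3 gained from WT to Ep300Δ/Δ 0.0. Without Bcl11a, H3K27ac gained was 9.52 from WT to Ep300Δ/Δ and 0.0 from Tet2-/- to Ep300Δ/ΔTet2-/-, H3K4me1 lost from WT to Ep300Δ/Δ was 33.8, and H3K4me3 gained there was 0.0. Among peaks above the median fold of their list, H3K27ac lost was 0.0 from WT to Ep300Δ/Δ, 17.6 from Tet2-/- to Ep300Δ/ΔTet2-/-, 5.88 from WT to Tet2-/- and 0.0 from Ep300Δ/Δ to Ep300Δ/ΔTet2-/-, and gained was 0.0, 0.0, 11.8 and 9.09. There H3K4me1 lost was 12.3, 10.0 and 12.3 in the last 3 of these steps, and H3K4me3 lost and gained were 0.0 in all 4. These subsets hold fewer regions, and the cause was otherwise not tested. Of 96 peak counts per gene, 15 moved by over 1.5 times at −log10 q of at least 5, and of 28 promoter H3K27ac counts of the 8 genes and the 6 pathway lists 0 moved that far at 1000 bp. In the marker lists, which those counts leave out, the stem and progenitor count in WT was 3 there, and the B cell count in WT and the granulocyte count in Tet2-/- were 0. Depth, which is unknown, and the lack of replicate libraries limit every comparison.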
